A study of Homo sapiens with 8 samples.

Results

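Transcript loss in 22Rv1 prostate carcinoma cells was followed by setting the array of cells given actinomycin D together with caffeine, after a first step in caffeine, against the array of cells harvested at the end of that first step. Caffeine was present on both sides, so the added factor was actinomycin D and 4 more hours in culture. A probe set entered the comparison when its log2 signal reached 4 on at least 1 of both arrays, which held for 21802 of 54675 probe sets and 10896 of 19775 genes. The higher of both signals was 4.00001 for the probe set just inside this floor and 3.99986 for the one just outside. Where a gene had several probe sets, the one with the strongest average signal over the 8 arrays of the series stood for it.

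22Rv1 is an established line derived from the CWR22 xenograft after relapse in castrated mice, and was grown in RPMI medium with fetal bovine serum. Actinomycin D with caffeine means cells kept for 4 hours in 10 mM caffeine, washed in saline, and then given 2 μg/ml actinomycin D with 10 mM caffeine for another 4 hours. Actinomycin D alone means the same first step followed by 2 μg/ml actinomycin D without caffeine. Caffeine means cells harvested after 4 hours in 10 mM caffeine, and untreated cells were harvested at the same time without any drug. Each of these 4 groups was 1 plate and 1 Affymetrix U133 Plus 2.0 array, and LNCaP, a line from a lymph node metastasis of prostate cancer, gave the same 4 groups. No array of 22Rv1 was repeated, so no p-value is given for this line, and 8 hours in caffeine on one side stand against 4 hours on the other.

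Actinomycin D inserts into DNA and stops RNA polymerases, so that after its addition the level of an mRNA depends on how fast the existing molecules are broken down. Short-lived mRNAs typically encode transcription factors, cytokines and feedback inhibitors of signalling, and many carry AU-rich elements in their 3′ untranslated regions that recruit deadenylases. Long-lived mRNAs typically encode ribosomal proteins, metabolic enzymes and other housekeeping proteins. Caffeine blocks phosphatidylinositol kinase-related kinases, among them SMG1, which phosphorylates UPF1 in nonsense-mediated mRNA decay (NMD), and it also inhibits phosphodiesterases that degrade cAMP.

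Among the genes with the greatest loss were several whose transcription is switched on within minutes of a stimulus, such as EGR1 and FOS. Such genes are known to be induced through elements in the DNA just upstream of their start sites. The promoters of the lowest genes were searched for such elements and for TATAAA boxes. RefSeq (GRCh38.p14) had a promoter entry for 20 of the 25 lowest genes. The 5 with any match in the 250 bases upstream of the start were chosen for display. FOS, ANGPTL4 and DKK1 matched only the TATAAA box, and ANGPTL4 and DKK1 had lower signals with caffeine than in untreated cells. The 130 bases before the start site of these 5 are given 5′ to 3′ on the strand of the gene, with TATAAA boxes, the cAMP response element TGACGTCA and serum response elements in capitals.
DUSP1, chr5:172771196-172771325, minus strand: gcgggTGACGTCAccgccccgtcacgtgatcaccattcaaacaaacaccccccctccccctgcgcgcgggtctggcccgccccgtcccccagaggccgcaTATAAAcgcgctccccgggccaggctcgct
EGR1, chr5:138465349-138465478, plus strand: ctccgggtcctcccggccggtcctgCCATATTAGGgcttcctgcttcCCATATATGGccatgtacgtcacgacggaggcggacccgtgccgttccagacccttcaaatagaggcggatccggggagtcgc
FOS, chr14:75278698-75278827, plus strand: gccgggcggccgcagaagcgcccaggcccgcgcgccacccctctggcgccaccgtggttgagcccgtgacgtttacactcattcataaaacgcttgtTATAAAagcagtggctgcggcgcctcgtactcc
ANGPTL4, chr19:8364025-8364154, plus strand: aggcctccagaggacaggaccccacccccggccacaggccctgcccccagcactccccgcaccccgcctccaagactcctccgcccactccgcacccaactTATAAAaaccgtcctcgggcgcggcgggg
DKK1, chr10:52314151-52314280, plus strand: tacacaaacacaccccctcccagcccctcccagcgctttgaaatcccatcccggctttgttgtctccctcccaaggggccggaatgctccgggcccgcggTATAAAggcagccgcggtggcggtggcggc

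In these windows DUSP1 has the cAMP response element beginning 125 bases before the start site and a TATAAA box beginning 30 bases before it, and EGR1 has serum response elements beginning 105 and 83 bases before it. The boxes of FOS, ANGPTL4 and DKK1 begin 33, 29 and 30 bases before the start. Searched on both strands over the 250 bases upstream of the start, TATAAA was found in 4 of these 20 promoters (20%), in 441 of the 8959 promoters of detected genes (4.92%) and in 11.1% of all 27305 promoters of the table. It was in 13 of 141 promoters of genes lower by at least 2 (9.22%). TGACGTCA was in 1 of the 20 (5%), in 3.02% of the promoters of detected genes and in 1.77% of all, and the serum response element in 1 of the 20, in 0.938% of the promoters of detected genes and in 1.14% of all. A match is a description of the letters and not evidence that a factor binds there.

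The deposited values are log2 signals normalized to the same distribution on all arrays, with a median of 2.75, so a loss shared by all mRNAs cannot be seen in them. The 21 probe sets of bacterial poly-A RNA, which the array protocol provides as a spike-in, were higher by 0.77 on average (SD 0.17) with actinomycin D and caffeine than with caffeine, and all 21 were higher. The 18 probe sets of hybridization controls were higher by 0.25 on average, and 16 of them were higher. How much of the poly-A difference comes from the arrays rather than from the mRNA was not tested. Probe sets of 18S rRNA were higher by 1.91 (n = 3) and of 28S rRNA by 1.40 (n = 2). If the arrays are scaled on the poly-A RNA, every difference below moves down by 0.77 and the median gene stands at −0.75, while differences between genes stay as they are. The signal of the 3′ end of ACTB mRNA exceeded that of its 5′ end by 1.31 with actinomycin D and caffeine and by 1.43 with caffeine. All 7 luminal prostate markers measured were detected, with signals from 9.09 to 13.31 with actinomycin D and caffeine and from 8.62 to 13.38 with caffeine, the 3 leukocyte and 4 endothelial markers measured were all under the floor, and of 5 stromal markers COL1A1, DCN and LUM were detected.

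Most transcripts kept their relative level. The difference (actinomycin D with caffeine minus caffeine) had a median of 0.02 over the 10896 genes with an SD of 0.65, and 74.0% of genes lay within 0.5 of 0. A difference of 1 on the log2 scale, that is 2-fold, was the cut-off for counting a gene. Of all detected genes 778 (7.14%) were lower and 210 (1.93%) higher by at least 1, 174 (1.6%) were lower by at least 2 and 51 by at least 3. Of the detected probe sets 1379 (6.33%) were lower and 858 (3.94%) higher by at least 1. These percentages are the background against which the counts of each gene group are read.

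**Figure D1:**
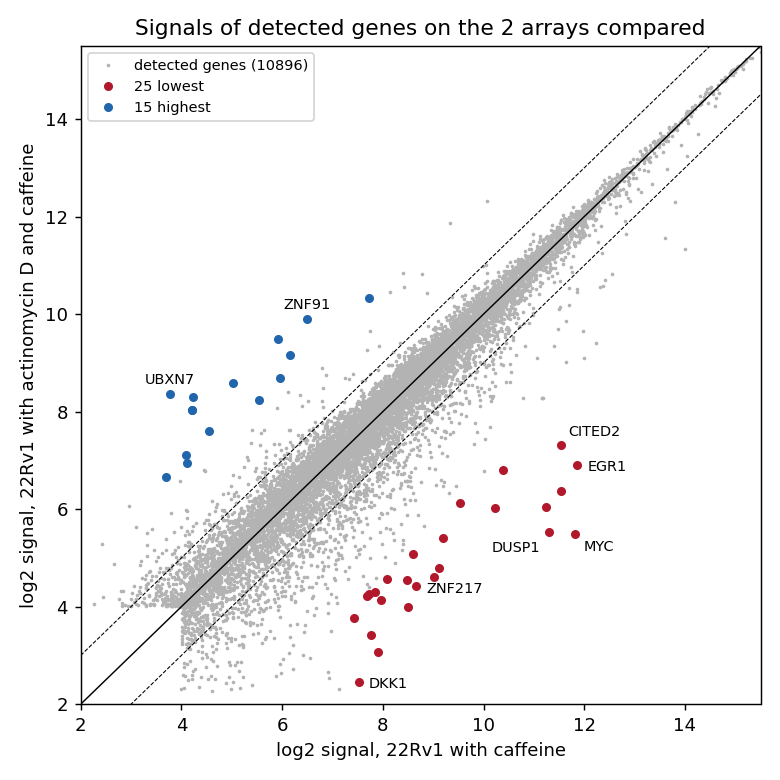
Log2 signals of the 10896 detected genes in 22Rv1 cells with actinomycin D and caffeine (vertical axis) and with caffeine (horizontal axis), 1 array each; the solid line marks equal signals and the dashed lines a difference of 1 in either direction. The 25 lowest genes (red) had caffeine signals between 7.42 and 11.85 and lie far below the band, and the 15 highest (blue) lie above it.

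Because no array was repeated, the only check on a single value was whether another probe set of the same gene gave the same picture. Of the 778 lower genes, 288 had further detected probe sets, and in 157 of these (54.5%) the median of the others was also lower by at least 1. Of the 210 higher genes, 91 had further detected probe sets, and in 11 of these (12.1%) the median of the others was also higher by at least 1. Among the 4542 genes with further detected probe sets and a difference within 1, the others were lower by at least 1 in 2.71% and higher in 3.79%. Loss was thus seen by other probe sets of the same gene more often than gain, without a test of the difference.

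MYC, the transcription factor that drives growth and division, had the largest loss of all genes. Its signal was 5.48 with actinomycin D and caffeine and 5.61 with actinomycin D alone, against 11.81 with caffeine and 11.83 in untreated cells, a difference of −6.33. Both arrays with actinomycin D were low and both without it were high. TRIB1, a pseudokinase that brings substrates to the ubiquitin ligase COP1, was at 6.04 with actinomycin D and caffeine, 4.87 with actinomycin D alone, 11.24 with caffeine and 9.71 untreated, a difference of −5.20. The 25 lowest genes together had signals from 2.45 to 7.31 (median 4.61) with actinomycin D and caffeine and from 2.50 to 7.40 (median 4.60) with actinomycin D alone. Their signals were 7.42 to 11.85 (median 8.65) with caffeine and 5.10 to 11.83 (median 8.23) in untreated cells. The ranges on both arrays with actinomycin D thus did not overlap that on the caffeine array, which the choice of the genes fixes for the arrays compared. The values of IRX5, ZNF398, TIPARP, DKK1 and FEM1C were under the floor with actinomycin D and caffeine, where a signal may no longer follow the amount of RNA, and the size of the loss is not exact.

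Immediate early genes and genes induced by cAMP were among the lowest. EGR1, a zinc finger factor induced by growth signals, was at 6.90 with actinomycin D and caffeine, 7.40 with actinomycin D alone, 11.85 with caffeine and 6.95 untreated, a difference of −4.95, and its other probe sets gave −5.70 and −5.15. FOS, a subunit of the AP-1 factor, was at 4.61 with actinomycin D and caffeine, 4.25 with actinomycin D alone, 9.01 with caffeine and 5.32 untreated, a difference of −4.40. For both genes the caffeine array was the only high one of the 4. The same held for GEM, a small GTPase that restrains calcium channels, with signals of 6.38 with actinomycin D and caffeine, 6.08 with actinomycin D alone, 11.54 with caffeine and 5.18 untreated. SIK1, a kinase that holds CREB coactivators in the cytoplasm, was at 6.02 with actinomycin D and caffeine, 5.70 with actinomycin D alone, 10.23 with caffeine and 5.10 untreated. PDE4B, a phosphodiesterase that degrades cAMP, and PTGER4, a receptor for prostaglandin E2 that raises it, differed by −3.47 and −3.52. For these 6 genes the caffeine array was the highest, and both arrays with actinomycin D lay nearer to the untreated array than to the caffeine array.

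Another set of the lowest genes was already high without any drug. CITED2, which binds the coactivators CBP and p300, was at 7.31 with actinomycin D and caffeine, 6.74 with actinomycin D alone, 11.54 with caffeine and 11.51 untreated, although 1 of its 2 other probe sets, with all signals near the floor, gave 0.01. ZNF217, a zinc finger factor amplified in several cancers, was at 4.42 with actinomycin D and caffeine, 4.11 with actinomycin D alone, 8.65 with caffeine and 9.56 untreated. SNAI2, a repressor of epithelial genes, was at 6.13 with actinomycin D and caffeine, 4.30 with actinomycin D alone, 9.54 with caffeine and 9.54 untreated, and so was higher when caffeine was kept. DKK1, a secreted inhibitor of Wnt signalling, was at 2.45 with actinomycin D and caffeine and 2.50 with actinomycin D alone, against 7.54 with caffeine and 8.23 untreated. ANGPTL4, a secreted inhibitor of lipoprotein lipase, differed by −3.92, and HES1, the repressor that Notch induces, by −3.52, with −0.50 for another of its probe sets. Chromatin and nuclear factors completed the group, among them the PHD finger genes PHF13 (−3.57) and PHF23 (−3.54), the homeobox gene IRX5 (−4.50) and the zinc finger genes ZNF398 (−4.83) and ZNF627 (−3.82). PHLDA1 differed by −4.33, CSRNP1 by −3.80, TIPARP, an ADP-ribosyltransferase, by −4.34, SERTAD3 by −3.47 and FEM1C, a substrate receptor of a ubiquitin ligase, by −3.66.

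**Figure D2:**
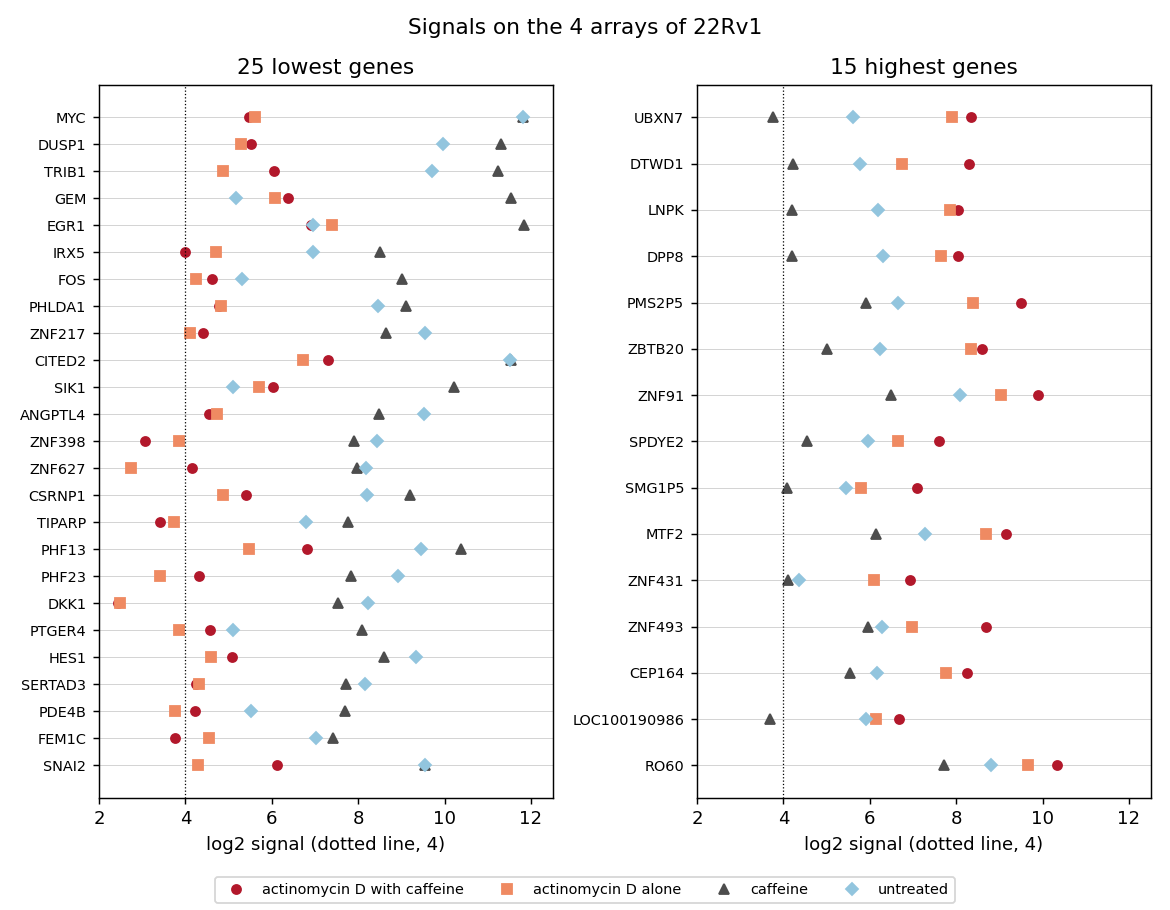
Log2 signals of the 25 lowest and 15 highest genes on the 4 arrays of 22Rv1 (actinomycin D with caffeine, circles; actinomycin D alone, squares; caffeine, triangles; untreated, diamonds), with the detection floor of 4 as a dotted line. Both arrays with actinomycin D lie close together for most genes, and the untreated signal lies near the caffeine signal for MYC, CITED2 and SNAI2 but near the actinomycin D signals for GEM, EGR1 and SIK1.

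Feedback inhibitors of growth factor signalling formed the gene list with the lowest median. Of 16 detected inhibitors of the ERK pathway, 12 were lower by at least 1 and none higher, against 7.14% lower among all genes, and their median was −2.42. With signals under 4 set to 4, 9 of the 16 were lower and the median was −1.78. When all detected probe sets of each gene were averaged, the median was −1.82, and the cAMP and CREB targets (−2.16) and immediate early factors (−2.06) described below were then lower. DUSP1, a phosphatase that removes phosphate from MAP kinases, was at 5.53 with actinomycin D and caffeine, 5.30 with actinomycin D alone, 11.30 with caffeine and 9.96 untreated, a difference of −5.78, while another of its probe sets gave −1.53. DUSP6, the phosphatase of ERK, was at 4.59 with actinomycin D and caffeine, 3.15 with actinomycin D alone, 7.86 with caffeine and 4.13 untreated. The Sprouty gene SPRY2 and the related SPRED2, which restrain Ras and Raf, differed by −3.22 and −3.17. SPRED3 (0.40) and DUSP8 (−0.28) stood apart from the rest.

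Of 17 detected immediate early transcription factors, 12 were lower by at least 1 and none higher, with a median of −1.52. Beside EGR1 and FOS they included NR4A1, an orphan nuclear receptor, at 8.28 with actinomycin D and caffeine and 11.16 with caffeine, and JUNB, the partner of FOS, at 6.18 and 8.63 on the same arrays. IER5 (0.46), MAFG (0.08) and IER3 (−0.05) lay within the SD of all genes. Among 13 detected Krüppel-like factors, zinc finger factors with roles in differentiation, 8 were lower by at least 1 and none higher, with a median of −1.55. KLF4 was at 9.09 with actinomycin D and caffeine, 8.45 with actinomycin D alone, 12 with caffeine and 10.24 untreated, and KLF9 differed by −2.06 (another probe set −0.99) and KLF7 by −1.89 (others −1.74, −1.19 and −0.25). KLF6 differed by −2.62, while its other probe sets gave −1.43, 0.90 and 1.61, so its direction depends on the probe set. Of 13 detected targets of cAMP and CREB, 9 were lower and none higher, with a median of −1.67, and RGS2, an inhibitor of G protein signalling, was at 11.34 with actinomycin D and caffeine against 13.99 with caffeine. NR4A1, NR4A2 and NR4A3 belong to both lists.

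Most partners of MYC did not share its loss. Of 10 detected members of the MYC and MAX network, MYC and MNT, a repressor that competes for MAX, were lower by at least 1 (MNT −1.68, another probe set 0.07), and the median was −0.25. MAX itself was at 8.76 with actinomycin D and caffeine and 9.04 with caffeine. Of 10 detected ID and HES repressors, which block or compete with basic helix-loop-helix factors, 5 were lower and HES2 was higher (1.49). ID1 was at 9.41 with actinomycin D and caffeine, 8.38 with actinomycin D alone, 12.23 with caffeine and 12.16 untreated, and ID3 differed by −2.88.

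Feedback genes of other pathways contained some lower members beside many that kept their level. In the TGF-beta and BMP feedback list 4 of 10 were lower, led by the corepressor TGIF1 (−3.32, another probe set 0.20) and the inhibitory SMAD7 (−3.02), which was at 2.39 with actinomycin D and caffeine and thus under the floor. In the NF-kB list 2 of 8 were lower, NFKBIA, the inhibitor that retains NF-kB in the cytoplasm (−2.19), and NFKBIZ (−1.90). Among 17 detected p53 targets, 3 were lower, the phosphatase gene PPM1D (−3.02), SESN2 (−2.50, another probe set −0.22) and the nuclease gene AEN (−1.10), and the median was −0.18. Of 25 genes of the ATF4 stress response 6 were lower, with DDIT4, an inhibitor of mTORC1, at 5.71 with actinomycin D and caffeine, 5.28 with actinomycin D alone, 8.36 with caffeine and 12.33 untreated. In the BCL2 family 3 of 13 were lower, namely the BH3-only genes BMF (−2.08) and BCL2L11 (−1.13) and the survival gene BCL2L1 (−1.03), while PMAIP1, which encodes NOXA, was higher (1.75, another probe set 1.59). The other probe sets of BCL2L11 gave values from −0.66 to 0.41 and those of BCL2L1 from −0.83 to 0.02, and with the probe sets of each gene averaged 1 of 13 was lower. In the clock list 2 of 9 genes, TEF (−1.72) and CRY2 (−1.39), and 3 of 5 genes of the TXNIP and arrestin-domain list, led by TXNIP (−1.51), were lower.

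Genes of the decay machinery itself largely kept their level. Of 40 detected factors of general mRNA decay 3 were lower and none higher, the ubiquitin ligase gene CNOT4 (−1.81), the exosome gene EXOSC3 (−1.33) and the decapping gene DCP1B (−1.07), and the median was −0.05. Of 12 NMD and exon junction factors only SMG8, a regulator of the SMG1 kinase, was lower, at 5.06 with actinomycin D and caffeine and 7.14 with caffeine. UPF1 was at 7.61 with actinomycin D and caffeine and 7.83 with caffeine. Of 15 detected adaptors that bring deadenylases to mRNAs 4 were lower, namely ZFP36, which binds AU-rich elements (−2.81), BTG1 (−1.74), ZFP36L2 (−1.48, another probe set −0.27) and CPEB2 (−1.35), with a median of −0.30 for the list. With the probe sets of each gene averaged 3 of 15 were lower. The 5 snoRNA host transcripts detected, natural substrates of NMD, had differences between −0.47 (SNHG17) and 0.58 (GAS5).

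**Figure D3:**
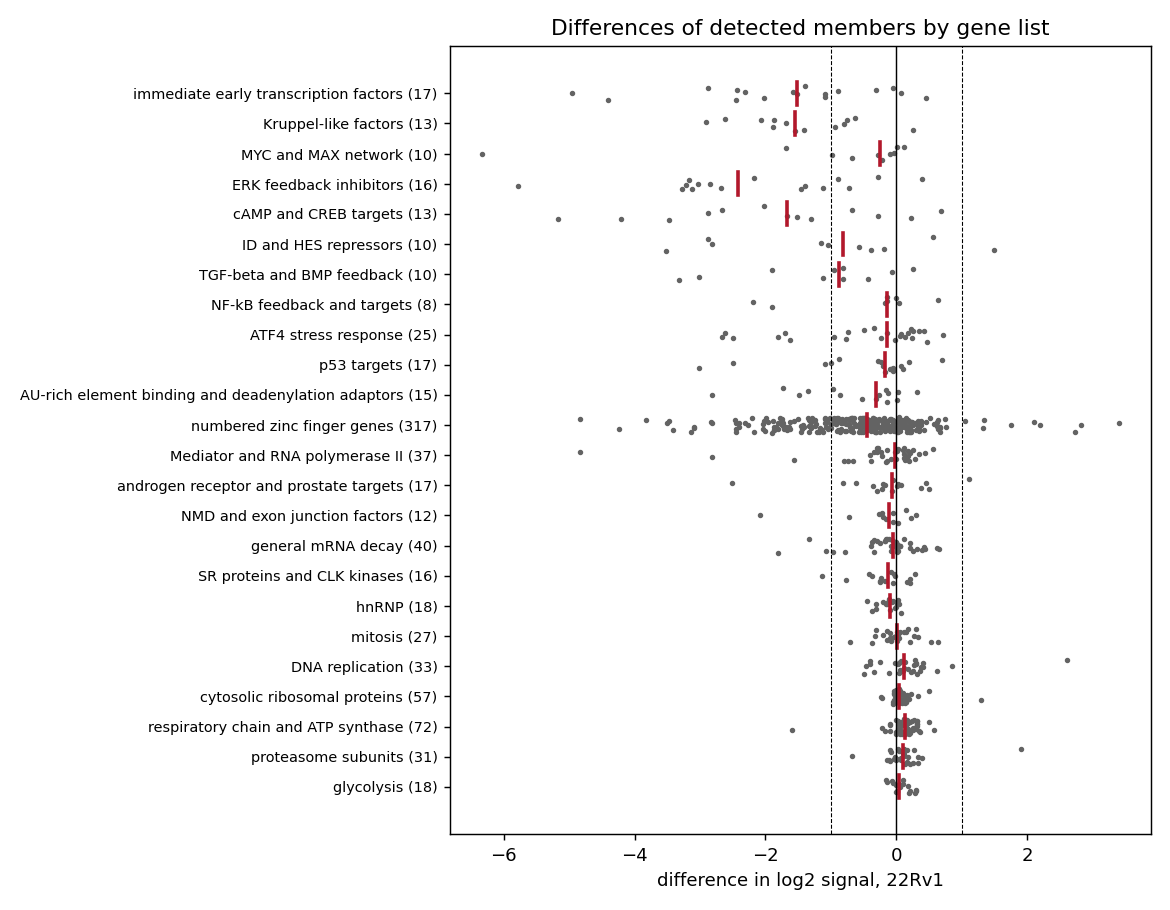
Difference in log2 signal (actinomycin D with caffeine minus caffeine, 22Rv1) of each detected member of 24 gene lists, with the number of members in parentheses; each point is a gene, the vertical spread within a list carries no value, and the thick bar is the list's median. The bar lies at −2.42 for the ERK feedback inhibitors and within 0.15 of 0 for ribosomal, respiratory chain, proteasome and glycolysis genes.

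Zinc finger genes were the largest group with loss. Of 317 detected genes with a numbered ZNF symbol, most of which encode KRAB or other C2H2 repressors, 90 (28.4%) were lower by at least 1 and 9 (2.84%) higher, with a median of −0.45. By at least 2, 25 were lower. The 90 lower genes had signals from 2.33 to 8.80 (median 4.80) with actinomycin D and caffeine, 2.29 to 8.53 (median 4.48) with actinomycin D alone, 4.22 to 10.22 (median 6.60) with caffeine and 2.27 to 10.36 (median 6.16) untreated. Their ranges overlapped widely between arrays, and 29 of them were under the floor with actinomycin D and caffeine, so that the losses of these are not exact. On chromosome 19, where many of these genes lie in clusters, 49 of 144 zinc finger genes (34.0%) were lower, against 41 of 173 (23.7%) elsewhere and 4.78% of 648 other genes of chromosome 19. Beyond the 3 named above, ZNF697 differed by −3.51. Other families defined by the letters of their symbols were looked at without a prior list. Of 127 families with at least 10 detected members 46 had no lower member, and in 11 at least 20% of members were lower. The highest shares were 61.5% for KLF (8 of 13), 47.4% for DUSP (9 of 19) and 38.5% for NR (5 of 13). ZFP had 35.7% (5 of 14) and FBXO, subunits of ubiquitin ligases, 34.6% (9 of 26). CHD and ZSCAN followed with 30.0% each (3 of 10).

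Housekeeping groups showed little change relative to other genes. None of 57 detected cytosolic ribosomal protein genes was lower, with a median of 0.05, quartiles of 0.01 and 0.09 and median signals of 14.61 with actinomycin D and caffeine and 14.51 with caffeine. RPL10L, at 5.17 with actinomycin D and caffeine and 3.87 with caffeine, was the single higher member. A probe set of RPL37A that did not stand for its gene differed by −4.55 in 22Rv1 and −3.20 in LNCaP. Averaging the probe sets of each gene made 1 of the 57 lower. All genes with a caffeine signal of 12 or more varied little, with an SD of 0.38 and 2.84% lower, against 0.65 and 7.14% over all detected genes. Whether signals this high still follow the amount of RNA was not tested. Of 72 respiratory chain and ATP synthase genes 1 was lower, ATP5MF (−1.59), which was under the floor at 3.68 with actinomycin D and caffeine, with a median of 0.14. None of 75 mitochondrial ribosomal protein genes was lower, and MRPL19 (1.04, another probe set 0.36) was higher. None of 31 proteasome genes, 18 glycolysis genes, 18 hnRNP genes, 27 mitosis genes, 33 DNA replication genes or 17 cholesterol synthesis genes was lower. Among these groups only PSMD11, a proteasome lid subunit at 9.65 with actinomycin D and caffeine against 7.74 with caffeine (another probe set differed by 0.26), and GINS4, a replication fork subunit at 6.58 against 3.97, were higher by at least 1. Another probe set of the glycolysis gene PKM differed by 1.89. On an array scale set by the poly-A RNA the medians of all these groups would lie below 0.

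A few members stood out from otherwise steady groups. MED26, a Mediator subunit that recruits elongation factors, was at 2.30 with actinomycin D and caffeine, 2.35 with actinomycin D alone, 7.13 with caffeine and 6.74 untreated (another probe set, near the floor, differed by −0.34), while 34 of 37 genes of Mediator and RNA polymerase II were within 1 and the list's median was −0.02. MED7 (−2.82) and MED17 (−1.56) were the other lower members. The mitochondrial tRNA synthetase genes PARS2 (−2.42) and MARS2 (−2.16) were the only lower ones of 30 aminoacyl-tRNA synthetases. BAG3 (−2.35) and DNAJB1 (−1.02, another probe set −0.55) were the lower ones of 13 cytosolic chaperones, both known heat shock genes, and HERPUD1 (−1.88) the single lower one of 21 genes of the unfolded protein response. CLK1, a kinase of SR splicing factors, was at 9.03 with actinomycin D and caffeine, 6.53 with actinomycin D alone, 10.17 with caffeine and 8.21 untreated, so its signal was higher when caffeine was kept with actinomycin D than when it was not. EIF5, a translation initiation factor, was at 12.31 with actinomycin D and caffeine against 9.85 with actinomycin D alone, 10.08 with caffeine and 9.07 untreated, and EIF1AD differed by −1.16. The other probe sets of EIF5 gave 1.01, −0.04, −0.21 and −0.29 and that of EIF1AD −0.55, and with the probe sets of each gene averaged none of 39 initiation factors was lower or higher by at least 1.

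Of 17 detected genes of the androgen receptor program and its targets, FOXA1 was lower and FOLH1 higher. FOXA1, the pioneer factor that opens chromatin for the androgen receptor, was at 8.28 with actinomycin D and caffeine, 7.96 with actinomycin D alone, 10.79 with caffeine and 9.97 untreated, a difference of −2.51, and another probe set, near the floor, gave −0.15. FOLH1, the prostate-specific membrane antigen, was at 6.67 with actinomycin D and caffeine and 5.56 with caffeine. KLK3, which encodes prostate-specific antigen, was at 9.12 with actinomycin D and caffeine, 9.32 with actinomycin D alone, 8.62 with caffeine and 8.34 untreated, a difference of 0.50 that lies within the SD of all genes. None of 12 keratin and junction genes was lower by at least 1, and CLDN4 was nearest at −0.95. Of 176 detected solute carriers 4 were lower and none higher, with a median of 0.09.

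The 15 highest genes had signals from 6.67 to 10.34 (median 8.31) with actinomycin D and caffeine, 5.79 to 9.67 (median 7.76) with actinomycin D alone, 3.70 to 7.72 (median 4.55) with caffeine and 4.37 to 8.81 (median 6.20) untreated. UBXN7, a cofactor of the segregase p97, was at 8.36 with actinomycin D and caffeine, 7.91 with actinomycin D alone, 3.77 with caffeine and 5.61 untreated, a difference of 4.59 that counts a signal under the floor, and 1.27 for another of its probe sets. DTWD1, a tRNA-modifying enzyme, was at 8.31 with actinomycin D and caffeine, 6.75 with actinomycin D alone, 4.22 with caffeine and 5.77 untreated. In each of the 15 the caffeine array was the lowest of the 4, and the signal with actinomycin D and caffeine was the highest. With arrays scaled on the poly-A RNA all 15 stayed above 0, with RO60 lowest at 1.84. That scaling takes the same 0.77 from every difference, so the choice of genes with large gains fixes this outcome.

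Other probe sets of the highest genes often disagreed with these values. Of the 10 with further detected probe sets, 4 had a median of the others that was higher by at least 1. The others gave −0.15 and −0.35 for DTWD1, and for DPP8, a dipeptidyl peptidase (3.82), they gave 0.09 and 0.01. LNPK, which shapes the endoplasmic reticulum (3.83), gave 0.21 and 0.54, and MTF2, a partner of Polycomb repressive complex 2 (3.01), gave values from −0.48 to 0.17. ZBTB20 (3.57), a repressor with a BTB domain, gave values from −0.86 to 1.49. Both remaining protein genes outside repeated families, CEP164 of the centriole (2.70, others 0.29 and 0.30) and RO60, which binds Y RNAs (2.61, others 3.70 and 0.08), had such values as well. PMS2P5 (3.58) and SMG1P5 (3.01) are pseudogenes with close copies. SPDYE2 (3.05), ZNF91 (3.40), ZNF431 (2.83) and ZNF493 (2.74) belong to families of related genes. Whether signal from other copies or family members adds to theirs was not tested. The other probe sets of ZNF493 gave 4.96 and −0.11. LOC100190986, a long noncoding RNA (2.97), was under the floor with caffeine, and another probe set, also under the floor there, gave 1.97.

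Shares of lower and higher genes by gene class are given without a test. Of 10353 protein-coding genes 7.30% were lower and 1.62% higher, of 372 long noncoding RNAs 3.49% were lower and 6.72% higher, and of 141 transcribed pseudogenes 4.26% were lower and 12.1% higher. Probe sets without a gene symbol were higher in 9.13% of 2027 cases and lower in 6.61%, against 3.34% and 6.46% of 18714 with 1 symbol. Genes lower by at least 2 had a median span of 14628 bp from first to last base (n = 173), those lower by 1 to 2 of 26387 bp, those within 1 of 29750 bp and those higher by at least 1 of 34577 bp (GRCh38.p14). When genes were divided by span into 5 bins of equal size, the share of lower genes was 8.95% in the shortest and 6.15% in the longest. By signal with caffeine, 8.07% of genes between 4 and 6, 9.57% between 6 and 8, 5.98% between 8 and 10, 4.70% between 10 and 12 and 2.84% above 12 were lower.

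The same difference in LNCaP cells shares no array with that in 22Rv1. Over 10151 genes detected in both lines the differences had a Pearson r of 0.39 and a Spearman rho of 0.35 across genes, which are not independent and share the platform and its normalization. Of 683 genes lower by at least 1 in 22Rv1, 225 (32.9%) were also lower in LNCaP, which is 27.8% of the 809 lower there, and 7.97% of all 10151 genes were lower in LNCaP. Of 163 genes higher in 22Rv1, 39 (23.9%) were also higher in LNCaP, 10.6% of its 367, against 3.62% of all. Another 95 of the lower genes of 22Rv1 were not detected in LNCaP. Loss thus ran in the same direction in both lines for a part of the genes, and no test of the difference between lines was possible with 1 array each. The poly-A RNA was higher by 0.77 in 22Rv1 and by 1.18 in LNCaP, and 18S rRNA by 1.91 in 22Rv1 and by 7.62 in LNCaP; their part in the differences was not tested.

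Of the 25 lowest genes in 22Rv1, 20 were detected in LNCaP and 17 of these were lower there by at least 1, with a median of −2.44. TRIB1 was lower by nearly the same amount, −5.20 in 22Rv1 and −4.71 in LNCaP, where it was at 4.67 with actinomycin D and caffeine and 9.38 with caffeine. MYC differed by −6.33 in 22Rv1 and −3.31 in LNCaP, where it was at 9.31 with actinomycin D and caffeine, 7.92 with actinomycin D alone, 12.62 with caffeine and 12.66 untreated. PHLDA1 (−4.33 in 22Rv1, −3.96 in LNCaP) and ZNF217 (−4.23 in 22Rv1 and −3.79 in LNCaP) were close in both lines. EGR1, FOS, DKK1, PDE4B and SNAI2 were under the floor on both LNCaP arrays compared, and GEM, ANGPTL4 and HES1 were detected with differences of −0.80, −0.06 and −0.52. All 15 highest genes were detected in LNCaP, where 6 were higher by at least 1 and the median was 0.93.

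**Figure D4:**
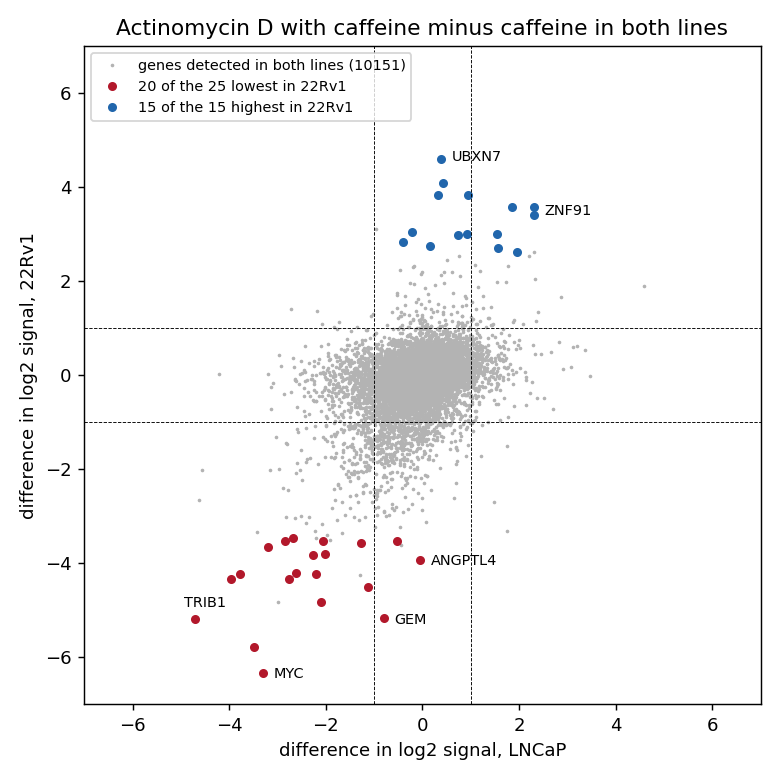
Difference in log2 signal (actinomycin D with caffeine minus caffeine) of 10151 genes in 22Rv1 (vertical axis) and LNCaP (horizontal axis), 1 array per line and treatment, with dashed lines at a difference of 1. Of the 25 lowest genes in 22Rv1 (red) 20 are shown, and 17 lie left of −1 in LNCaP, while GEM, ANGPTL4 and HES1 do not.

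By gene list, 47 of the 83 zinc finger genes that were lower in 22Rv1 and detected in LNCaP were lower there too, and none was higher. Of all zinc finger genes detected in LNCaP 80 of 306 were lower, against 8.54% of all genes detected there (4.69% were higher). The ERK feedback inhibitors had a median of −2.42 in 22Rv1, with 12 of 16 lower, and of −0.22 in LNCaP, with 4 of 12 lower. Immediate early factors had medians of −1.52 in 22Rv1 (17 detected) and −0.62 in LNCaP (13 detected). For cAMP and CREB targets the medians were −1.67 in 22Rv1 (13 detected) and −0.25 in LNCaP (9 detected). Only members detected in a line enter its median, so that EGR1 and FOS are left out in LNCaP and the medians do not cover the same genes. Mitosis genes had a median of 0.01 in 22Rv1, with 0 of 27 lower, and of −0.80 in LNCaP, with 8 of 27 lower. None of these differences between the lines was tested.

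A loss shared by both lines was tested with limma over all 8 arrays, where each line served as 1 replicate of a treatment and entered the fit as a block. Of 21453 probe sets whose mean signal reached 4, the number at an adjusted p under 0.05 was 0 (0%) in either direction by limma, and 2628 had an unadjusted p under 0.05, of which 1432 were lower and 1196 higher. The smallest adjusted p was 0.063, for a probe set without a gene symbol with differences of −3.56 in 22Rv1 and −3.87 in LNCaP. A probe set annotated to the microRNA gene MIRLET7D came next by p, with an estimate of −3.38. Which transcript this probe set reads was not tested. It was followed by a gain, in a probe set not assigned to 1 gene (3.84 in 22Rv1, 4.11 in LNCaP). The RPL37A probe set described above (estimate −3.87) came after that gain. All had an adjusted p of 0.107 by limma. Of the genes named above, TRIB1 had an estimate of −4.96 (standard error 0.45, adjusted p = 0.107). FEM1C had −3.43 (standard error 0.37, adjusted p = 0.107) and MYC −4.82 (standard error 0.75, adjusted p = 0.131). None of them passed the test.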

How the data were processed

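Total RNA of LNCaP and 22Rv1 cells was hybridized to Affymetrix U133 Plus 2.0 arrays, 1 array per line and treatment and 8 in all. The authors deposited log2 signals per probe set, made with gcRMA in R: background correction, then quantile normalization over the arrays, then 1 value per probe set (the processing notes name RMA and GCRMA, versions not given in the sources used here). The values were used as deposited, and 0 columns of other samples were left out. The number of arrays limits the precision.

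Probe sets took their gene from the platform annotation: 41097 had 1 gene symbol, 1801 several and 11777 none, and 41043 of the first kind were matched to RefSeq (GRCh38.p14). A feature was detected with a signal of at least 4 on either array compared. Named genes are the 25 lowest and 15 highest after signals under 4 were set to 4, and in each list the 4 members farthest from 0, plus others that complete a description. The comparison, the members and the 40 gene lists were chosen with earlier results of these data known, and cell type markers were listed separately. Counts use a difference of at least 1 and carry no test.

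The shared loss was fitted with limma 3.58.1 in R 4.3.3 (lmFit and eBayes, Benjamini-Hochberg adjustment, 3 residual degrees of freedom, prior 2.93) and the script was tested on simulated data. Treatments are crossed with cell line, which served as the replicate block. Alternatives changed the floor, the cut-off, the centring, the array scale (from the poly-A RNA), the choice of probe set, and the filter, variance model and arrays of limma. Counts, correlations and figures came from python 3.11.15 with pandas 2.3.3, numpy 2.4.6 and matplotlib 3.10.9.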

Additional observations from a re-analysis of the deposited data

Results flagged for a closer look

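The 16 genes below moved by at least 1 in opposite directions in both lines, out of 10151 genes detected in both; each difference (actinomycin D with caffeine minus caffeine) rests on 1 pair of arrays, and whether the lines differ was not tested. FLRT3, BMP2, NR4A3, CHST2, NETO1 and PRELID3A were under the floor of 4 on at least 1 of the arrays compared. Their differences count such signals and are not exact. BMP2 in LNCaP, for example, was at 2.57 with caffeine and 4.06 with actinomycin D and caffeine, barely past the floor. Of the 16 genes, 8 were lower in 22Rv1 and higher in LNCaP. FLRT3, a cell adhesion protein, differed by −3.31 in 22Rv1 and 1.76 in LNCaP, with signals of 2.58 with actinomycin D and caffeine and 5.89 with caffeine in 22Rv1, against 4.08 and 2.32 on the same arrays of LNCaP. BMP2, a bone morphogenetic protein, differed by −2.69 in 22Rv1 and 1.49 in LNCaP, and the orphan nuclear receptor NR4A3 by −1.52 in 22Rv1 and 1.74 in LNCaP. LRATD1 differed by −1.73 in 22Rv1 and 1.22 in LNCaP, ENC1 by −1.19 and 1.04 in these lines, and CHST2, a sulfotransferase, by −1.07 and 1.24. ATXN7 differed by −1.02 in 22Rv1 and 1.03 in LNCaP and IRAK2, a kinase of interleukin signalling, by −1.003 and 1.36.

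The other 8 were higher in 22Rv1 and lower in LNCaP. ZBTB16, a transcriptional repressor, differed by 1.02 in 22Rv1 and −1.83 in LNCaP, and GAL, the neuropeptide galanin, by 1.03 in 22Rv1 and −1.36 in LNCaP. FAM13A-AS1 differed by 1.08 in 22Rv1 and −2.08 in LNCaP, and SOWAHC by 1.12 in 22Rv1 and −1.72 in LNCaP. NETO1 differed by 1.25 in 22Rv1 and −1.06 in LNCaP, and LRCH3 by 1.297 in 22Rv1 and −1.02 in LNCaP. PRELID3A differed by 1.36 in 22Rv1 and −2.19 in LNCaP, and the mitochondrial gene ND6 by 1.40 in 22Rv1 and −2.72 in LNCaP. None of the 16 is among the 25 lowest or 15 highest genes of 22Rv1.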

How the results depend on the processing

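The main limit is that 22Rv1 gave 1 array per treatment, so counts describe a pair of arrays, and that the signals are relative. Leaving out a replicate was not possible. For genes, 778 lower and 210 higher became 1809 and 1025 at a cut-off of 0.5, 515 and 105 at 1.3, 174 and 35 at 2, and 3101 and 45 with arrays scaled on poly-A probe sets, and 111 were higher with a floor of 6. The split of lower against all called genes moved to 98.6% with that scaling, against 78.7% as deposited. For probe sets, 1379 lower and 858 higher became 909 and 448 with a floor of 6, 3226 and 3025 at a cut-off of 0.5, 897 and 505 at 1.3, 283 and 180 at 2, and 5623 and 259 with the poly-A scaling, with 95.6% and 61.6% of calls lower. With other floors, with signals under 4 set to 4, with centring, and for genes with the mean of all probe sets or another choice of probe set, counts stayed within 1.5 times. With that mean, single lists moved more: lower members numbered 1, against 3, in the BCL2 family, 1, against 2, among cytosolic chaperones, 0, against 1, among initiation factors, and 1, against 0, among cytosolic ribosomal proteins. Setting signals under 4 to 4 left 9, against 12, lower members among ERK feedback inhibitors and 0, against 1, higher members among histones.

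Medians of −1 or lower were seen for 5 gene lists, and for 11 with the poly-A scaling, which moves every median by 0.77. For the fit over both lines the count of 0 lower and 0 higher probe sets became 1 lower with no filter, and 10899 lower and 68 higher with the poly-A scaling. The fit with no replicate block (no cell line term) called 0, with 552 at an unadjusted p under 0.05, and the other settings tried also called 0. The correlation between the lines was 0.39, and 0.37 over genes detected on all 4 arrays. Of the 36 values that other probe sets of the 40 named genes gave, 10 had the opposite sign. These were CITED2 (0.008), DTWD1 (−0.15 and −0.35), ZBTB20 (−0.86, −0.029 and −0.084), MTF2 (−0.48, −0.25 and −0.072) and ZNF493 (−0.11). No named gene changed sign when signals under 4 were set to 4 or with the poly-A scaling, which the choice of genes with large differences fixes in advance.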

Other observations

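Long noncoding RNAs, most of them with a LINC symbol, were mostly steady in 22Rv1, with 4 of 81 detected lower by at least 1, 5 higher and a median of 0.11. LINC00685 was at 8.12 with actinomycin D and caffeine, 7.88 with actinomycin D alone, 6.40 with caffeine and 7.50 untreated, and LINC01128 at 5.65 with actinomycin D and caffeine, 5.24 with actinomycin D alone, 7.20 with caffeine and 6.06 untreated. Of 45 histone genes listed, most of whose mRNAs have no poly-A tail, 11 were detected; none was lower and their median was 0.54. H4C5 was higher by 1.07, at 4.01 with actinomycin D and caffeine and 2.94 with caffeine, which is under the floor. With signals under 4 set to 4, none of the 11 histone genes was higher by at least 1 and their median was 0.31. H2AC6 was at 6.60 with actinomycin D and caffeine, 6.33 with actinomycin D alone, 5.84 with caffeine and 3.24 untreated. FOXA1 differed by −2.51 in 22Rv1 and by −1.24 in LNCaP.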
